A study of Mus musculus with 2 samples.

Results

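The genes described here encode the proteasome, its activators and its assembly factors. They were taken by symbol from the annotated features of the deposited gene table: symbols starting Psma, Psmb, Psmc, Psmd, Psme or Psmg followed by a digit, without marked pseudogenes and without the 3 immunoproteasome subunits Psmb8, Psmb9 and Psmb10. The rule matched 46 of 29646 annotated features, of which 16 encode the core particle, 17 the cap, 5 the activators and 7 the assembly factors. The last match, Psmc3ip, has a fitting symbol but encodes a protein of meiotic recombination. The cells were X63/0 (X63-Ag8.653), a mouse plasmacytoma line, that is, a transformed line of antibody-producing cells. RNA depleted of ribosomal RNA was sequenced from an untreated culture and from a culture kept for 3 h in 30 mM cycloleucine, an amino acid analogue that blocks the enzyme making S-adenosylmethionine, the methyl donor of the cell. Both groups were grown in the same serum-supplemented medium, and a mock addition to the untreated culture is not described in the labels. Each group had 1 library here, although the design text mentions triplicates, so no difference below has a replicate check and no test between conditions was made. For the same reason, whether the groups overlap cannot be judged for any gene.

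The proteasome degrades proteins that carry ubiquitin chains. Its core is a barrel of outer alpha rings, which gate the entrance, and inner beta rings, which hold the proteolytic sites; a cap of an ATPase ring and a lid recognises, unfolds and feeds in the substrate. Plasma cells load this system heavily because they make large amounts of secretory protein, and myeloma cells are known for their sensitivity to proteasome inhibitors. Subunit genes are transcribed together by the factor Nfe2l1 when proteasome activity falls short, through antioxidant response elements in their promoters.

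A few promoter stretches are shown first, as examples of sequence elements searched in these genes. RefSeq promoters of GRCm38.p6, from 250 bases before to 50 bases after an annotated start, were found for 38 of the 46 genes, in 41 windows of 300 bases. The core of the ETS family element, CCGGAAG on either strand, stood in 16 of the 41 windows (39.0%), in 8.86% of all 32851 promoters in the table, and in 21.2% of the 8676 promoters of genes measured in these cells. It was found for 9 of 14 cap genes and for 1 of 12 core genes, Psma6. It was also found for 2 of 5 activators, 2 of 6 assembly factors and Psmc3ip. In the following 30-base stretches, written 5′ to 3′ on the gene's strand, capitals mark that element or its reverse complement. The first 3 belong to the cap ATPase Psmc1 (chr12:100110163-100110192, plus strand), the cap base scaffold Psmd2 (chr16:20651615-20651644, plus strand) and the lid subunit Psmd6 (chr14:14120972-14121001, minus strand). The next 3 belong to the lid subunits Psmd12 (chr11:107479500-107479529, plus strand) and Psmd13 (chr7:140882377-140882406, plus strand) and to the activator Psme3 (chr11:101316204-101316233, plus strand).
Psmc1: tggtggatgcaCTTCCGGcggtggcgattt
Psmd2: tccgcagggcgCTTCCGGtctggaggacaa
Psmd6: cagagacgcgaCCGGAAGtcagactggcgg
Psmd12: tgagcgggcgaCTTCCGGtgcgagtgacga
Psmd13: cgcccgcggtgCCGGAAGtgagcgagcact
Psme3: ctgtgacgcaaCTTCCGGcgtgagcggcga

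The antioxidant response element, written TGACNNNGC and searched on both strands, stood in 6 of the 41 windows (14.6%), in 12.4% of all promoters and in 14.5% of the promoters of measured genes. Its carriers were the catalytic core subunits Psmb5 and Psmb6, the cap subunits Psmc6 and Psmd12, the activator Psme4 and the assembly factor Psmd9. That is 2 of 12 core genes, 2 of 14 cap genes, 1 of 5 activators and 1 of 6 assembly factors. The stretches of Psmb5 (chr14:54618023-54618052, minus strand), Psmb6 (chr11:70525338-70525367, plus strand) and Psme4 (chr11:30771758-30771787, plus strand) are given with that element in capitals.
Psmb5: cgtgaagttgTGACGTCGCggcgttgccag
Psmb6: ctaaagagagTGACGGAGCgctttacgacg
Psme4: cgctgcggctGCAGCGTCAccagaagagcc

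The other elements searched, on both strands, were the CCAAT box (CCAAT, in 34.1% of the proteasome windows, 37.4% of all promoters and 39.2% of those of measured genes) and the GC box (GGGCGG, 56.1%, 35.7% and 65.2%). By role, the CCAAT box was found for 7 of 12 core and 4 of 14 cap genes, and the GC box for 5 of 12 and 10 of 14. A difference between roles was not tested for any element. TATAAA stood in 7.32% of the proteasome windows against 13.6% of all promoters and 6.03% of those of measured genes. TGAGTCA stood in 1 proteasome window (2.44%, against 5.20% and 2.97%) and the element of nuclear respiratory factor in 2 (4.88%, against 0.971% and 2.39%). The median GC content of the proteasome windows was 59% against 61.3% for measured genes and 52.7% for all promoters. These are matches of letters in a fixed window, and a window without a match says only that the letters are not in it. The 7 elements were chosen with results of these data known.

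Across the measured proteasome genes the RNA level differed little between the libraries. A gene counted as measured when its RPKM (exon reads per kilobase of exon, scaled by the library's gene reads) reached 1 in a library and its exon reads over both reached 50, which 43 of the 46 genes and 9081 features in all passed. Together the 46 genes held 139076 exon reads untreated, 0.513% of the library's gene reads, and 162751 with cycloleucine, 0.509%. Their summed reads gave a log2 ratio of -0.0093, with a 95% exact (Clopper-Pearson) counting interval of -0.020 to 0.0010. Such intervals cover counting error only, not the spread between cultures, and reads from PCR without molecular identifiers are not independent molecules.

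Gene by gene, the log2 fold change, taken as log2 of the cycloleucine RPKM plus 0.1 over the untreated RPKM plus 0.1, ran from -0.21 for Psma3 to 0.28 for Psmg4. Of the 43 genes, 19 were above 0 and 24 below, where 50.6% and 49.4% of all measured features were. The median was -0.012, beside 0.0022 over all measured features. The middle 50% of the proteasome genes lay between -0.076 and 0.040, and that of all features between -0.12 and 0.13.

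No proteasome gene reached 1.5-fold in either direction, which 4.03% of all measured features did. None reached a log2 fold change of 0.32 in either direction, where 15.5% of all features did. With uniquely placed reads over exon-exon junctions, which are fewer, 3 of the 43 genes passed 0.32, against 33.3% of all features, and 0 passed 1.5-fold, against 15.6%. The 3 were Psmg1 (-0.50), Psmg4 (0.40) and Psmb5 (0.38). The counting interval lay wholly above 0 for 5 genes, namely Psmb2, Psmb3, Psmb5, Psmd8 and Psme4, where 22.5% of all features had such an interval. It lay wholly below 0 for 11 genes, against 21.1%, and crossed 0 for 27.

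Proteasome genes are well counted, and well counted features differ less between libraries, so the counts were also read among the 5606 features with at least 1000 exon reads, a limit chosen after seeing the data. Of the 40 proteasome genes among them 17 were above 0 and 23 below, against 49.9% and 50.1% of these features. None of the 40 passed 0.32 on the log2 scale, against 6.9%, and none passed 1.5-fold, against 0.66%. The interval lay above 0 for 5 and below 0 for 11, against 24.5% and 22.9%. As shares of the 40 genes these are 12.5% above 0 and 27.5% below. With scaling by TMM the counts over all 43 genes were 9 above and 10 below 0, so the balance of such intervals depended on the scaling.

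**Figure D1:**
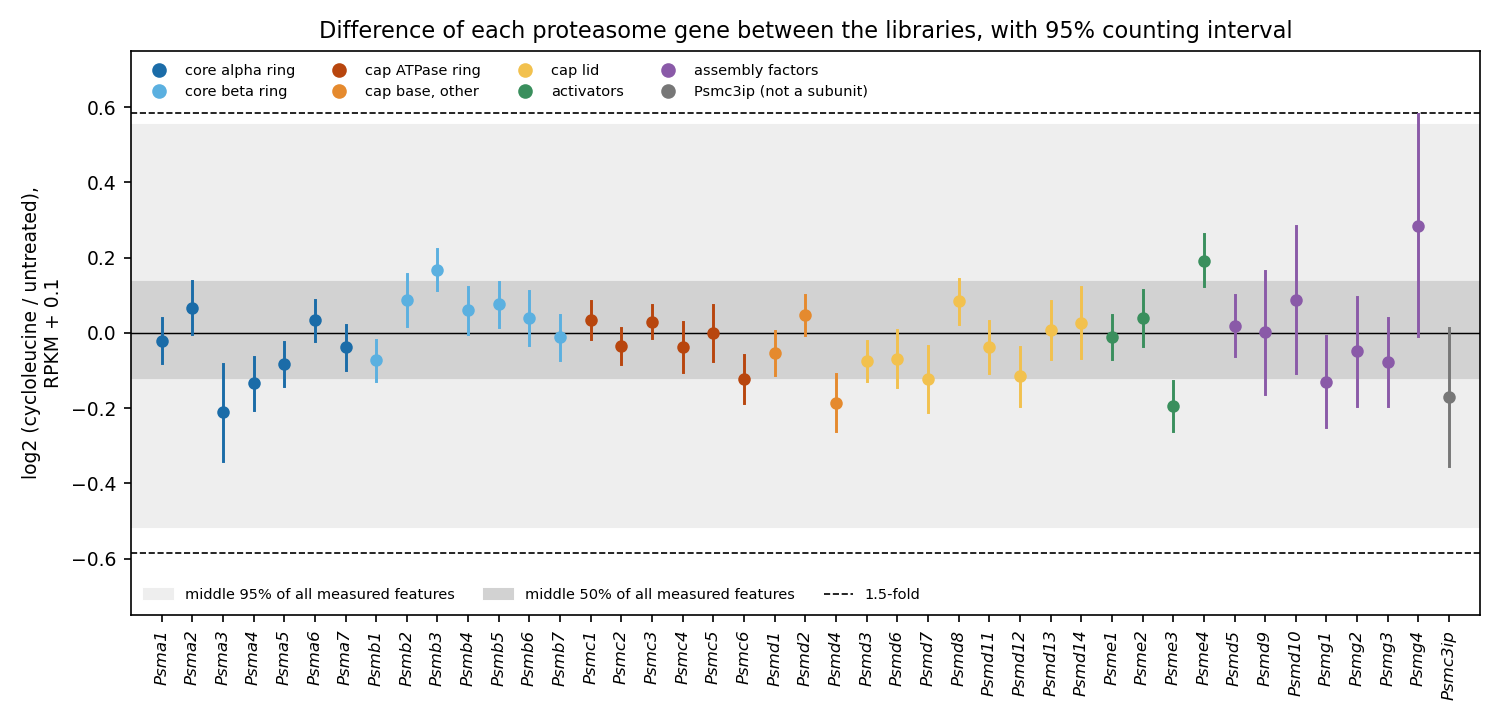
Log2 fold change (cycloleucine over untreated, RPKM plus 0.1) of the 43 measured genes, ordered and coloured by role, with bars for the 95% counting interval; grey bands hold the middle 50% and the middle 95% of all measured features and dashed lines mark 1.5-fold. Every point lies inside the dashed lines, and the lowest and highest are Psma3 (-0.21) and Psmg4 (0.28).

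**Figure D2:**
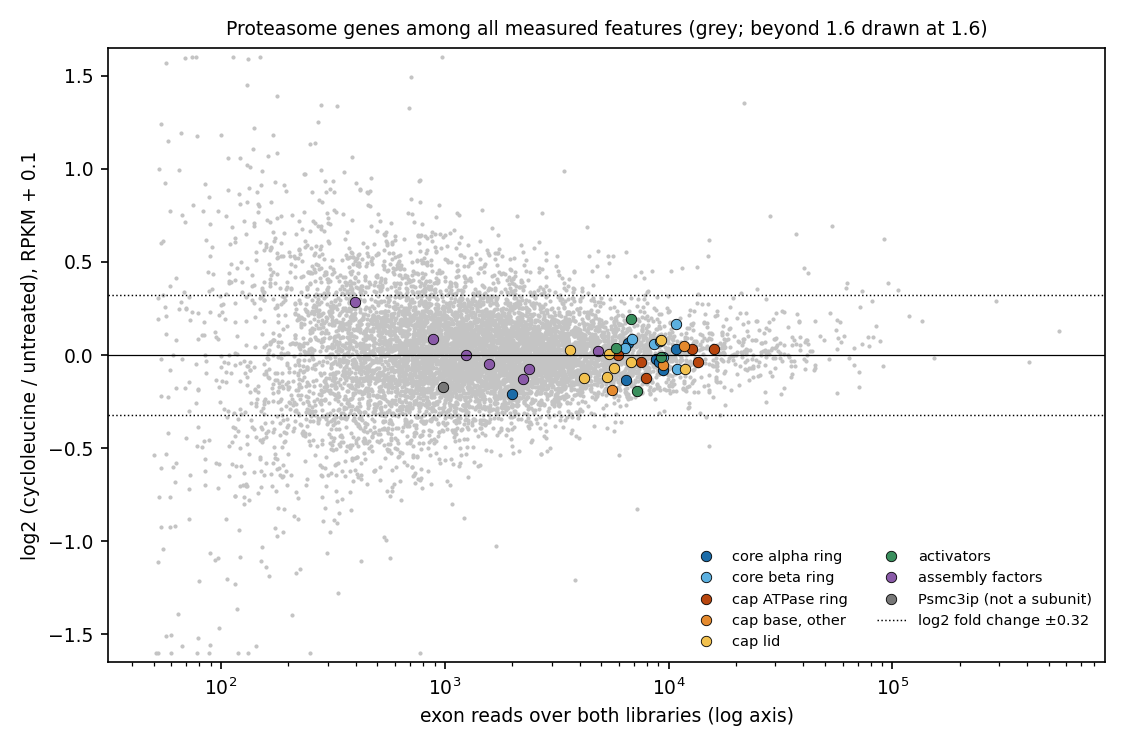
Log2 fold change (cycloleucine over untreated, RPKM plus 0.1) against exon reads over both libraries (log axis) for all 9081 measured features in grey and the 43 proteasome genes coloured by role; dotted lines mark a log2 fold change of 0.32. The spread of the grey points narrows with reads, and the proteasome genes lie between the dotted lines.

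The untreated library held 27127865 gene reads and the cycloleucine library 31951946, of which 64.5% and 62.97% were uniquely placed. The line's label was checked against markers: 6 of 6 plasma cell genes were measured, from 7.71 to 154 RPKM untreated and 7.91 to 158 RPKM with cycloleucine. Of the B cell genes, 2 of 5 were measured (Cd79b and Ms4a1), with Pax5 at 0 and 2 exon reads. T and natural killer cell genes (0 of 5 measured), fibroblast genes (0 of 3) and myeloid genes (1 of 4, Cd68) were at or near 0, with summed levels of at most 1.45 RPKM in either library.

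The core particle as a whole took 0.195% of gene reads untreated and 0.196% with cycloleucine. Of its 16 genes 14 were measured, 7 above and 7 below 0, with a median log2 fold change of 0.011. The median was 0.073 with uniquely placed reads, 0.071 with junction reads and -0.020 when libraries were scaled by total exon reads.

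Among the alpha subunits, whose tails close the gate of the barrel, 2 of 7 were above 0 and 5 below, with a median of -0.038, which turned to 0.015 with uniquely placed and 0.073 with junction reads. Psma6 stood at 147 RPKM untreated and 150 RPKM with cycloleucine. Psma5 stood at 125 and 118 RPKM, and Psma2 at 115 and 121 RPKM. By RPKM these were the 3 most abundant alpha genes. Of them Psma5 was lower in the cycloleucine library (log2 fold change -0.08, interval -0.14 to -0.02), while the intervals of Psma6 and Psma2 crossed 0. With uniquely placed reads those of Psma2 (0.037 to 0.18) and Psma6 (0.015 to 0.13) lay above 0. Psma1 (71.4 and 70.4 RPKM), an alpha subunit with 4074 and 4731 exon reads, and Psma7 (50.6 and 49.3 RPKM) were close to equal. Psma4 went from 48.6 to 44.3 RPKM, a log2 fold change of -0.13 (interval -0.20 to -0.06). For Psma4 and Psma5 junction reads gave 0.07 and 0.0065, so their direction depended on the reads used.

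Psma3 (chr12:70974620-70996347) had the lowest level of the measured core genes and the lowest fold change of the set. It stood at 9.42 RPKM from 995 exon reads untreated and 8.13 RPKM from 1012 with cycloleucine, a log2 fold change of -0.21 (interval -0.34 to -0.08). Only 27.1% of those reads were uniquely placed, the lowest share among the 43 genes. The uniquely placed reads, 242 and 301, gave 0.11 (interval -0.14 to 0.36), the opposite sign.

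In the beta ring 5 of 7 measured genes were above 0 and the median was 0.06, and the median stayed above 0 in each alternative tried, between 0.029 and 0.097. Summed beta ring reads gave 0.05 (interval 0.02 to 0.07), against -0.03 (interval -0.06 to -0.0091) for the alpha ring, but with junction reads the medians of both rings were alike, 0.069 and 0.073. A difference between the rings was not tested. Psmb3, a structural beta subunit (chr11:97703398-97713500), stood at 74.8 RPKM untreated (4664 exon reads) and 84.0 RPKM with cycloleucine (6174). Its log2 fold change of 0.17 (interval 0.11 to 0.22) was the highest of the core, and uniquely placed reads, 47.0% of its exon reads, gave 0.16, while junction reads gave 0.02.

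The proteolytic sites belong to Psmb5, Psmb6 and Psmb7, which cut after hydrophobic, acidic and basic residues in turn. Psmb5, the subunit that clinical proteasome inhibitors bind most strongly, stood at 173 RPKM untreated and 183 RPKM with cycloleucine (log2 fold change 0.08, interval 0.02 to 0.14). Psmb6 stood at 57.1 and 58.7 RPKM (0.04, interval -0.03 to 0.11). Psmb7 stood at 132 and 131 RPKM (-0.012, interval -0.07 to 0.05). Psmb5 was the one of these 3 with an interval that did not reach 0, but with uniquely placed reads that of Psmb6 was also above 0 (0.0031 to 0.15). Junction reads gave 0.38 for Psmb5, from 212 and 325 reads, 0.067 for Psmb6 and -0.15 for Psmb7.

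The remaining structural beta subunits were Psmb1 (182 and 173 RPKM), Psmb2 (93.6 and 99.5 RPKM) and Psmb4 (103 and 108 RPKM). Psmb1 was the 1 beta gene with an interval below 0 (-0.07, interval -0.13 to -0.02), and junction reads gave 0.07 for it. Psmb2 was higher with cycloleucine (0.09, interval 0.02 to 0.16).

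The cap genes matched by the name rule held 0.244% of gene reads untreated and 0.240% with cycloleucine. All 17 were measured, 6 above and 11 below 0, with a median log2 fold change of -0.037. The median was below 0 in each alternative tried, from -0.067 when scaled by total exon reads to -0.0033 with uniquely placed reads, and the last value is close to 0. The summed cap reads gave -0.03 (interval -0.04 to -0.01).

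The 6 ATPases of the ring, which unfold substrates with energy from ATP, stayed within a log2 fold change of -0.12 to 0.03. By RPKM Psmc1 was the most abundant, at 140 untreated and 143 with cycloleucine, and Psmc2 the least, at 46.2 and 45.1. Per kilobase of the main coding transcript, a scale described below, the order differed. Psmc3 was the highest ATPase there, at 147.3 untreated and 150.4 with cycloleucine, and Psmc6 the lowest, at 62.97 and 57.83. Psmc3 stood at 103 and 105 RPKM and had the most exon reads of the whole set, 7270 and 8744. Psmc4 stood at 59.7 and 58.2 RPKM. Psmc5 was nearly identical in the libraries, at 72.1 and 72.1 RPKM. Psmc6 was the ATPase that differed most, at 89.9 and 82.6 RPKM, a log2 fold change of -0.12 (interval -0.19 to -0.06), with 0.02 from junction reads.

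The other cap base genes matched by the name rule were the scaffolds Psmd1 and Psmd2 and the ubiquitin receptor Psmd4. Psmd4 (chr3:95032693-95042614) stood at 36.1 RPKM from 2751 exon reads untreated and 31.8 RPKM from 2849 with cycloleucine. That is a log2 fold change of -0.19 (interval -0.26 to -0.11), the lowest of the cap, and uniquely placed reads gave -0.14 and junction reads -0.12. Psmd1 went from 36.0 to 34.7 RPKM and Psmd2 from 48.4 to 50.0 RPKM, with intervals that crossed 0.

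Of the 8 lid genes 3 were above 0 and 5 below, with a median of -0.05. Psmd14, the metalloprotease that removes ubiquitin chains before a substrate enters, stood at 21.5 and 21.9 RPKM (0.03, interval -0.07 to 0.12). Its catalytically inactive partner Psmd7 stood at 46.5 and 42.7 RPKM (-0.12, interval -0.21 to -0.03). The other lid genes encode scaffold proteins that form the horseshoe of the lid. Psmd3 (41.6 and 39.5 RPKM) and Psmd12 (35.5 and 32.7 RPKM) had intervals below 0, at -0.07 and -0.12. Psmd8 was the lid gene with an interval above 0, at 98.2 and 104 RPKM (0.08, interval 0.02 to 0.14), although junction reads gave -0.03. Psmd6 (42.5 and 40.6 RPKM), Psmd11 (18.3 and 17.8 RPKM) and Psmd13 (26.9 and 27.1 RPKM) had intervals that crossed 0.

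The activators replace the cap at the ends of the barrel and open the gate without ubiquitin recognition, and among genes with at least 1000 exon reads they held the highest fold change, that of Psme4, and the second lowest, that of Psme3. Psme4, the large single-chain activator of the nucleus (chr11:30771725-30880361), stood at 12.8 RPKM from 2903 exon reads untreated and 14.6 RPKM from 3910 with cycloleucine. Its log2 fold change was 0.19 (interval 0.12 to 0.26), with 0.23 from uniquely placed and 0.19 from junction reads. Psme3, which forms the nuclear heptameric activator (chr11:101316212-101323537), stood at 44.6 RPKM from 3566 reads untreated and 38.9 RPKM from 3670 with cycloleucine. Its log2 fold change was -0.19 (interval -0.26 to -0.13), with -0.16 from uniquely placed and -0.14 from junction reads. The nuclear activators thus differed in opposite directions, each with the same sign from exon, uniquely placed and junction reads, and each by less than 0.32 on the log2 scale. These read sets overlap and come from the same libraries, so the shared sign is no separate check. Uniquely placed reads were 99.6% of the exon reads of Psme4 and 99.3% of those of Psme3. Psme1 and Psme2, the interferon-inducible pair that forms a mixed ring, stood at 71.3 and 70.7 RPKM and at 54.9 and 56.4 RPKM, with intervals that crossed 0.

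The assembly factors are chaperones that leave the finished particle. Their 7 genes had a median log2 fold change of 0.0017, with 4 above and 3 below 0, and together held 0.0231% and 0.0228% of gene reads. Psmg1 and Psmg2, which pair to start the alpha ring, stood at 29.6 and 27.01 RPKM and at 25.6 and 24.8 RPKM. Psmg1 had an interval below 0 (-0.13, interval -0.25 to -0.0094) and gave -0.50 with its 381 and 317 junction reads, the lowest junction value of the set. Psmg3, partner of Psmg4 in the next step, stood at 47.0 and 44.6 RPKM, with 33.3% of its exon reads uniquely placed. Psmg4 (chr13:34162963-34178172) had the highest fold change, 0.28, from 163 exon reads untreated (10.8 RPKM) and 234 with cycloleucine (13.2 RPKM), the fewest reads of the 43 genes, and its interval of -0.0091 to 0.58 included 0. With uniquely placed reads, 163 and 231, the interval was 0.0054 to 0.60.

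Psmd5, Psmd9 and Psmd10, chaperones of the cap base whose symbols carry the cap letter, stood at 21.7 and 22.0, at 4.60 and 4.60, and at 9.86 and 10.5 RPKM. By RPKM Psmd9 was the least abundant of the measured genes. Per kilobase of uniquely placed reads Psma3 was lower, at 3.55 and 3.84, against 6.66 and 6.56 for Psmd9. All 3 intervals crossed 0. Junction reads gave -0.26 for Psmd5 (603 and 594 reads), -0.08 for Psmd9 (175 and 195) and -0.18 for Psmd10 (84 and 87). Psmc3ip, the recombination protein, stood at 9.69 and 8.61 RPKM (-0.17, interval -0.35 to 0.013).

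The 3 genes that were not measured are variants of restricted use. Psma8, the alpha subunit of the testis proteasome, had 1 exon read in each library, and Psmb11, the beta subunit of the thymus cortex, had 5 and 2. Psme2b, an intronless copy of Psme2, had 2 and 3 exon reads and is 99.4% identical to it over 794 bases, so reads of the pair may be shared. A count of 0 would allow 3 reads, equal in the untreated library to 0.0653 RPKM for Psma8, 0.0260 for Psmb11 and 0.132 for Psme2b, and no fold is given at these counts.

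**Figure D3:**
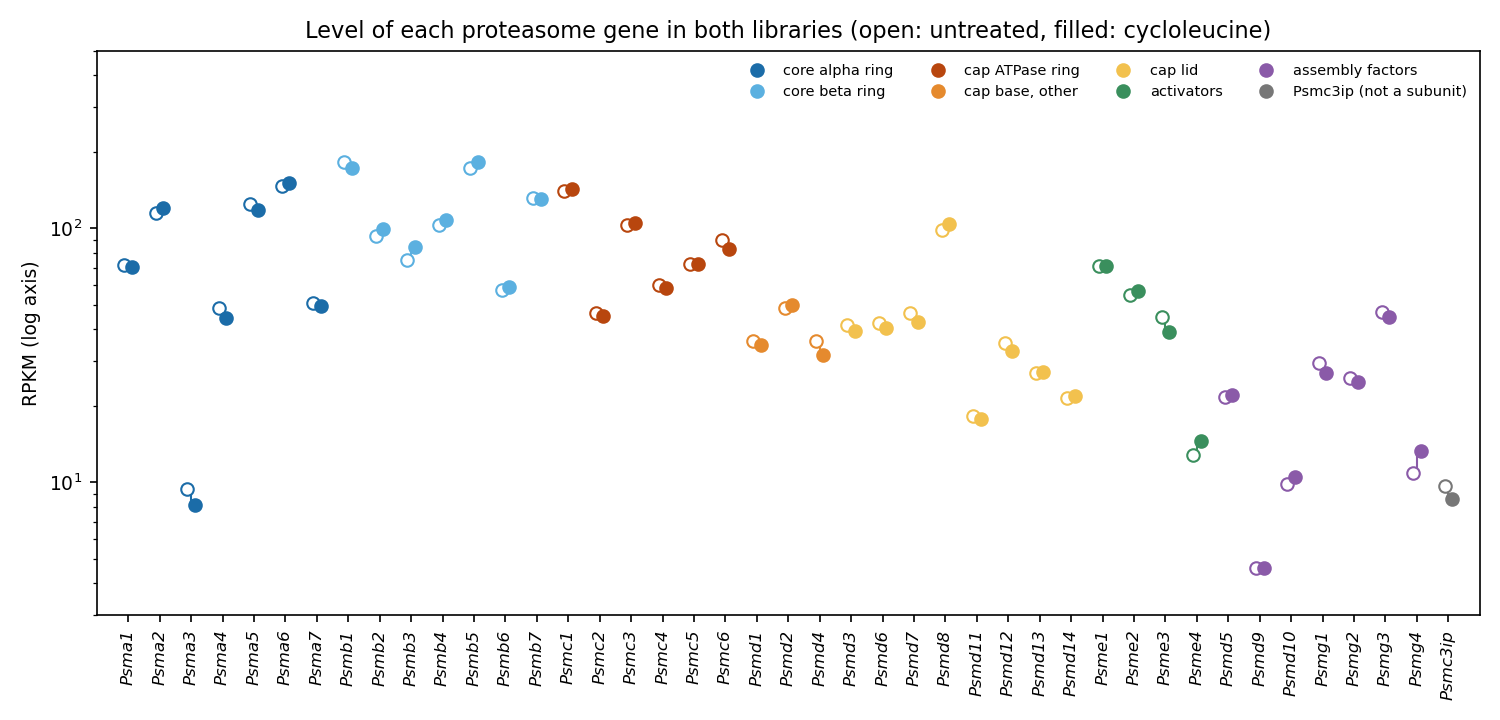
RPKM (log axis) of the 43 measured genes in the untreated library (open) and the cycloleucine library (filled), ordered and coloured by role. The symbols of each gene lie close together while the genes differ from 4.60 (Psmd9) to 182 RPKM (Psmb1) in the untreated library.

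Core and cap genes differed far more in their level of RNA from each other than between the libraries. On the RPKM scale core genes had a median level of 98.5 untreated and 104 with cycloleucine, and cap genes 46.2 and 42.7. The highest of the 31 core and cap genes was 19.4 times the lowest untreated and 22.4 times with cycloleucine, with Psma3 the lowest in both. Without the subunits that had under 50% of reads uniquely placed, the ratio was 9.99 and 10.3 over 28 genes, with Psmd11 the lowest. Within the beta ring the highest level was 3.19 and 3.11 times the lowest, within the ATPase ring 3.03 and 3.17 times, and within the lid 5.38 and 5.85 times. Between the libraries, in contrast, the median difference of a core or cap gene from all exon reads was 1.04-fold. The largest by that measure was 1.16-fold for Psma3, lower with cycloleucine, where uniquely placed reads gave the opposite sign (log2 0.11), and with junction reads Psmb5 differed by 1.30-fold.

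RPKM divides by the length of all annotated exons of a gene, which is long for genes with many listed transcripts such as Psmd11 (15 transcripts, 6383 bases). Per kilobase of the main coding transcript in GENCODE M21, scaled by gene reads in the same way, core genes had a median of 132 untreated and 131 with cycloleucine and cap genes 71.7 and 69.9, and Psmd11 itself stood at the cap median of 71.7 untreated. On that scale the highest lid level was 2.54 and 2.64 times the lowest. Over the core and cap genes together the ratio was 17.4 untreated and 22.7 with cycloleucine, with Psma3 the lowest. In the beta ring Psmb3 was the highest, at 224 and 252. Psmb1, the highest beta gene by untreated RPKM, was the lowest there, at 107.5 and 102.2. The core median was above the cap median on both scales. Between-gene order on either scale was not tested.

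**Figure D4:**
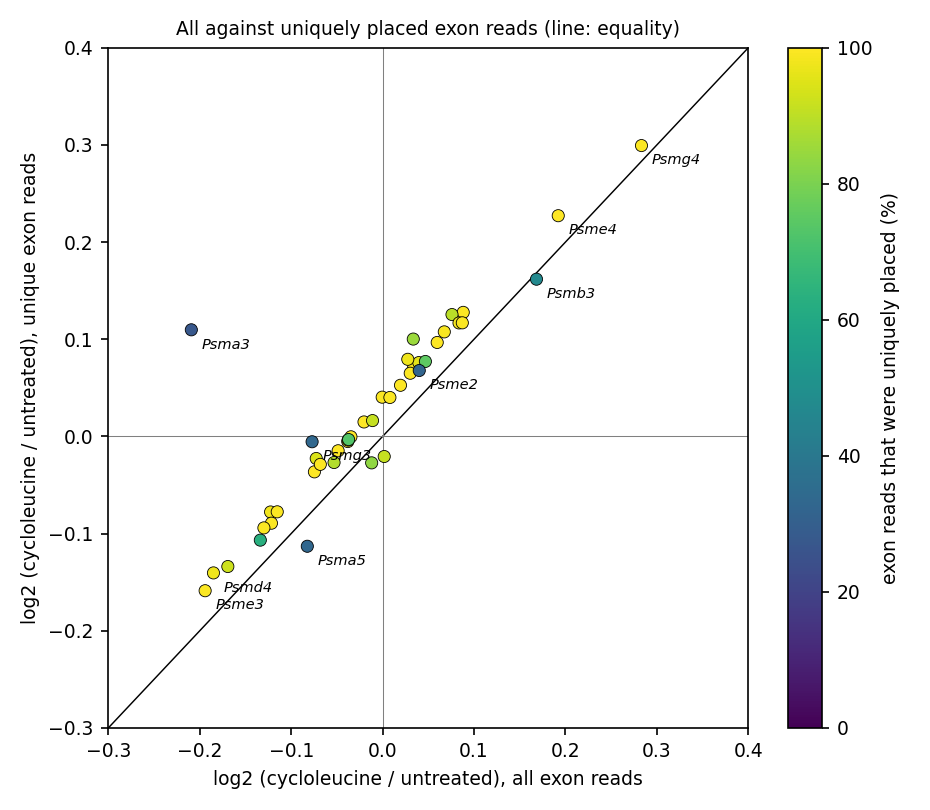
Log2 fold change (cycloleucine over untreated) from uniquely placed exon reads against that from all exon reads for the 43 measured genes, coloured by the percentage of exon reads that were uniquely placed, with the line of equality. Most points lie a little above the line, by a median of 0.035, and Psma3 (-0.21 and 0.11) lies farthest from it.

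Many proteasome genes have processed copies in the genome, and some reads of these genes were not uniquely placed. Uniquely placed reads made up over 95% of exon reads for 27 of the 43 genes and under 50% for 5, namely Psma3, Psma5, Psmb3, Psme2 and Psmg3. By uniquely placed reads 22 of the 43 genes were above 0, where 57.1% of all features were, and the sign differed from that of all exon reads in 5, namely Psma1, Psma3, Psmc5, Psme1 and Psmd9. The median of all measured features was 0.032 higher by these reads. Intervals that crossed 0 with all exon reads lay above 0 with uniquely placed reads for Psma2, Psma6, Psmb4, Psmb6, Psmc1, Psmc3, Psmd2 and Psmg4. Intervals below 0 with all exon reads crossed 0 with uniquely placed reads for Psmb1, Psmd3, Psmd12 and Psmg1, and that of Psma3 did so with its sign turned. A search of the main transcripts against GENCODE M21 found 29 pseudogene copies of 16 of the genes, with at least 90% identity over at least 200 bases. Of these, 20 were in the table, and they held 172 gene reads untreated and 189 with cycloleucine in all. Psmb3 had the most, 7 copies of 91.7% to 97.1% identity, of which 5 were in the table, with 29 and 18 reads. Psma3 had 3 copies, of 96.5% to 100% identity, of which 2 were in the table, with 12 and 13 reads. The reads given to the listed copies were thus few beside the 4664 and 6174 exon reads of Psmb3 itself. Copies outside the table have no count. A copy and a low unique share did not always go together: Psmg3 had no copy by this search and 33.3% of reads uniquely placed, while Psma2 had 2 copies and 99.2%.

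Intron reads were read beside exon reads, because unspliced RNA reports on recent transcription and on splicing. Of the genes, 34 had 100 or more intron reads and 200 or more exon reads in the libraries together and were compared, among 6803 in all. Their median log2 change of the intron to exon ratio was -0.015, with 16 above and 18 below 0, beside 0.022 for all genes. They ran from -0.53 for Psmb3, with 96 and 88 intron reads, to 0.57 for Psme3, with 73 and 112, and none lay outside the middle 95% of all genes, -0.66 to 0.72. With uniquely placed reads 2 of 31 genes did, and the range was -0.79 for Psmc3 to 0.63 for Psme3. With minimums of 50 intron and 100 exon reads the median was 0.026 over 39 of the genes, 21 above and 18 below 0, so its sign depended on the minimum.

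A few members had many intron reads for their exon reads. Psma6 had 4318 and 6315 intron reads, of which 7.93% were uniquely placed, and Psmd13 had 1761 and 2290, of which 6.12% were. Psmg4 had 821 and 1002, of which 3.07% were. Most intron reads of these 3 genes were therefore not uniquely placed. Those of Psmd14, 820 and 970, were in contrast 88.6% uniquely placed. Another feature with at least 50 gene reads overlapped 11 of the genes, such as Sirt3 at Psmd13 and Nek6 at Psmb7, and their reads may be mixed with those of the proteasome gene, as no source used here says whether counting used strand.

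The genes lie on 16 chromosomes, with 10 on chromosome 11, 6 on chromosome 14 and 5 on chromosome 2. On chromosome 14 the activators Psme1 (chr14:55578122-55581529) and Psme2 (chr14:55587440-55591113) lie close together, and Psmb5 (chr14:54614119-54617995) lies close to Psmb11 (chr14:54625309-54629556), which was not measured.

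**Figure D5:**
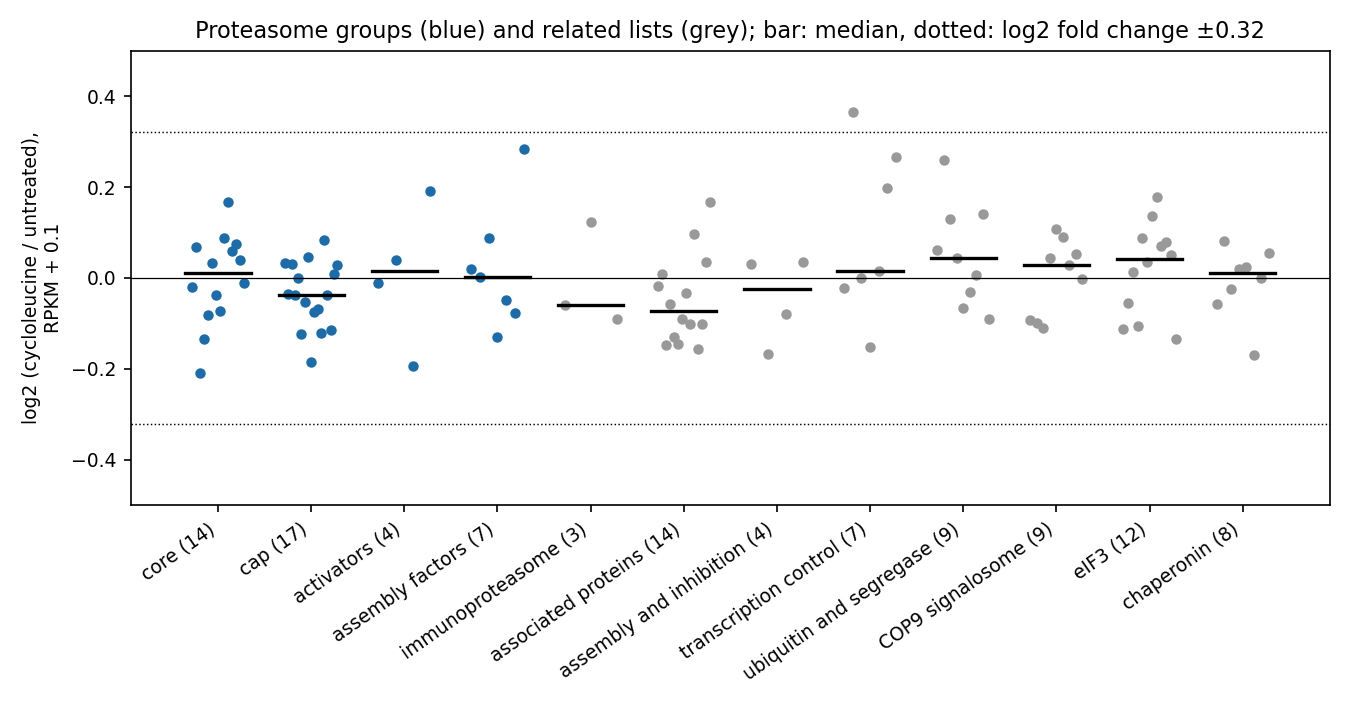
Log2 fold change (cycloleucine over untreated, RPKM plus 0.1) of the measured genes of the proteasome groups (blue) and of related lists (grey), with the number of genes in brackets, a bar at each median and dotted lines at 0.32. The point beyond a dotted line is Nfe2l2 (0.37) in the transcription control list.

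The genes around the proteasome were read from lists chosen with earlier results of these data known. The immunoproteasome subunits, which replace the catalytic beta subunits after interferon, stood by RPKM below the lowest of the measured constitutive beta genes, Psmb6 (57.1 and 58.7 RPKM). Psmb8 stood at 6.28 and 6.02 RPKM, Psmb9 at 4.57 and 4.99 RPKM and Psmb10 at 31.4 and 29.5 RPKM, and all 3 intervals crossed 0. Uniquely placed reads made up 47.5% of the exon reads of Psmb8, 98.3% for Psmb9 and 40.1% for Psmb10. Junction reads gave -0.33 for Psmb8, 0.13 for Psmb9 and -0.21 for Psmb10. Psmb8 takes the place of Psmb5, which stood at 173 and 183 RPKM.

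Of the 7 genes of transcription control, Nfe2l1, the factor that raises proteasome genes when activity falls short, stood at 22.9 and 22.5 RPKM (-0.02, interval -0.09 to 0.04). Its activating protease Ddi2 (10.6 and 10.6 RPKM) and the glycanase Ngly1 that edits it (2.998 and 2.69 RPKM) had intervals that crossed 0. Junction reads gave lower values for all 3. From them the log2 fold change of Nfe2l1 was -0.38 (203 and 183 reads), the log2 fold change of Ddi2 was -0.47 (319 and 271) and the log2 fold change of Ngly1 was -0.37 (131 and 119). The rest of the list took a higher share of junction reads with cycloleucine. Their reads were 53 and 84 for Nfe2l2, 82 and 149 for Nfya, 66 and 107 for Nfyb, and 186 and 265 for Nfyc. By such reads 33.3% of all features passed 0.32 in either direction. By all exon reads Nfe2l2, the regulator of the oxidative stress response, differed most of any gene in these lists. It stood at 8.54 RPKM from 879 exon reads untreated and 11.0 RPKM from 1338 with cycloleucine. That is a log2 fold change of 0.37 (interval 0.25 to 0.49). Nfe2l2 was the 1 gene of the proteasome and related lists beyond 0.32 by all exon reads. The 6 genes that carry the antioxidant response element in the promoter window had values from -0.12 (Psmc6 and Psmd12) to 0.19 (Psme4). Of the subunits of the CCAAT-binding factor, Nfya stood at 3.43 and 3.47 RPKM, Nfyb at 2.17 and 2.50 RPKM (0.20, interval -0.013 to 0.43) and Nfyc at 11.0 and 13.2 RPKM (0.27, interval 0.14 to 0.39).

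The list of other cap and associated proteins, which includes shuttle receptors and deubiquitinases, held 14 genes. They had a median of -0.074, with 4 above and 10 below 0, 1 interval above 0 and 7 below. They ran from -0.16 for the shuttle factor Ubqln2 to 0.17 for Zfand2a. Of all measured features 50.6% were above and 49.4% below 0, and 22.5% and 21.1% had an interval wholly above or below 0. With junction reads Ubqln1 (-0.17) and Ubqln4 (0.22) changed sign. The 4 measured genes of assembly and inhibition had a median of -0.024, from -0.17 for the inhibitor Psmf1 to 0.04 for Akirin2, which brings proteasomes into the nucleus. The ubiquitin and segregase list had a median of 0.044, with 6 above and 3 below 0, and its lowest value was -0.09 for Nploc4, a cofactor of the segregase Vcp.

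Complexes of comparable make were set beside the proteasome for scale. The COP9 signalosome, which is related to the lid, had a median of 0.028 over 9 genes, from -0.11 for Cops3 to 0.11 for Cops5. The translation initiation factor eIF3, related to the lid as well, had 0.042 over 12 genes, from -0.13 for Eif3m to 0.18 for Eif3h. The chaperonin had 0.010 over 8 genes, from -0.17 for Cct6a to 0.08 for Cct2. By all exon reads 0 genes of these 3 complexes, as of the proteasome, reached 0.32 in either direction. Of all measured features 15.5% did, and of those with at least 1000 exon reads 6.9% did.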

How the data were processed

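RNA of 2 libraries, 1 untreated and 1 treated with cycloleucine, was compared. The authors deposited a table with read counts per gene, split into total and uniquely placed reads of the gene, its exons, its introns and its exon junctions, and with an RPKM per library. The build mm10 is named in the submitters' processing notes, while aligner, counting tool, annotation release and strand were not given in the sources used here. Each deposited RPKM, multiplied by exon length and total gene reads, returned the exon reads in 29646 of 29646 annotated features of each library, with a tolerance of 0.02 reads and a relative one of 0.0001. Columns of other libraries numbered 0.

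Log2 fold changes were computed with a pseudocount of 0.1 RPKM, which understates the change of low genes. Counting intervals come from the 95% exact Clopper-Pearson bounds on the cycloleucine share of a gene's exon reads, scaled by total gene reads. Groups were described by counts and medians beside those of all measured features, and no test between conditions was made. Intron to exon ratios had 0.5 added to each count. Scaling alternatives used TMM factors from edgeR 4.0.16 (R 4.3.3) and median ratios; pseudogene copies were searched with BLAST 2.17.0 megablast; the rest ran in Python 3.11.15 with scipy 1.17.1. The interval code was tested on simulated data.

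The members and the lists were chosen with earlier results of these data known, and so were the promoter elements. Every member could be named, and of the related lists all genes of the immunoproteasome and transcription control lists and the highest and lowest of each other list. Features without an annotated transcript were left out after the table had been seen. Paaf1 and Eif3j were not matched in the table and are not analysed here. The results of a few genes of the lists are not reported here.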

Additional observations from a re-analysis of the deposited data

Results flagged for a closer look

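Reads were present in marked proteasome pseudogenes, which the name rule leaves out. Psmb5-ps is among the pseudogene copies counted above, while Psmb6-ps was not found by that search. Psmb5-ps, a copy of the catalytic subunit gene Psmb5, held 63 gene reads untreated and 103 with cycloleucine, above the 3 reads that a count of 0 allows. Psmb5 itself held 4092 and 5080 exon reads. Psmb6-ps held 5 gene reads with cycloleucine and 1 untreated. Of the Psmb5-ps reads 58 and 97 were uniquely placed, as were the 5 and 1 reads of Psmb6-ps.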

How the results depend on the processing

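No paired analysis was possible because there was 1 library per group, which also left no library to leave out. With 1 library per group, depth limits only the counting error, which is widest for Psmg4. Of 301 comparisons of single members with an alternative setting, 279 stayed within their counting interval, 15 moved beyond it and 7 changed sign after an interval that excluded 0. All shifts of the median of all features were at most 0.032, but the medians of the groups are of that size. The median of all members was 0.015 with uniquely placed reads, -0.027 with junction reads, -0.042 with scaling by total exon reads, -0.00072 with TMM and -0.0012 with median ratios. The core median was 0.073, 0.028, 0.071, -0.020, -0.016 and 0.034 with uniquely placed reads, all gene reads, junction reads, scaling by total exon reads, no filter, and members over 50% uniquely placed. The cap median was -0.0033, -0.064 and -0.067 with uniquely placed reads, junction reads and scaling by total exon reads. That of the assembly factors was -0.17 with junction reads and -0.049 with at least 1000 exon reads. Of the 43 members, those with an interval above 0 numbered 13 with uniquely placed reads (26.4% of all features), 8 with all gene reads (24.2%), 2 with total exon reads (18.1%), 9 with TMM (24.5%) and 9 with median ratios (24.4%). Those with an interval below 0 numbered 6 with uniquely placed reads (14.5%), 7 with junction reads (13%) and 17 with total exon reads (26.4%). The highest over the lowest core and cap level was 74.6 and 67.9 per kilobase of uniquely placed reads, and 9.99 and 10.3 among subunits over 50% uniquely placed. Values that changed sign included, with uniquely placed reads, Psma3 0.11 and Ubb -0.0068. With junction reads they were Psma3 0.13, Psma4 0.07, Psma5 0.0065, Psmb1 0.069, Psmc6 0.020, Psmd8 -0.034, Ubqln1 -0.17, Ubqln4 0.22, Psmf1 0.017, Ubb -0.37 and Eif3a 0.16. The settings of at least 1000 exon reads, members over 50% uniquely placed and main transcript length were chosen after seeing the data. The cause of these changes was not tested.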
